A study of Rattus norvegicus with 50 samples.

Results

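The livers described here came from brain-injured rats that had received no erythropoietin (EPO) and nevertheless carried little Hamp RNA 72 h after the injury. They are 4 of the 10 vehicle and anakinra livers at 72 h, in a series of 50. They were chosen by a measured value: a log2 level of Hamp below 12. Hamp is the gene of hepcidin, so its level in these livers is the choice itself and not a result. The question was whether red cell transcripts, and transcripts that EPO changes in the same tissue, were also higher in livers without the drug.

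All rats were male Sprague Dawley animals about 3 months old, with 5 animals and 5 arrays in each of 10 groups. The EPO rats had a controlled cortical impact, in which a piston bruises the exposed brain, and 2500 IU/kg EPO. The anakinra rats had the same injury and 100 mg/kg anakinra, which blocks the interleukin-1 receptor, and the vehicle rats had the injury and saline. Each of these groups was sampled at 24 h, 72 h and 7 days, and sham rats were intact and carry no time label. All 10 livers compared here were therefore injured, and 5 of them also had anakinra. The sources used here give neither the dosing schedule nor whether the livers were flushed of blood. The tissue was a set of punches from the median lobe.

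Hepcidin is a hormone of hepatocytes that blocks iron release into plasma by binding the iron exporter ferroportin. Its gene is switched on by BMP-SMAD signalling when iron is plentiful and by interleukin-6 in inflammation, and it is switched off when red cell production is stimulated. EPO drives the survival and maturation of red cell precursors, and in mice these precursors release erythroferrone, which lowers hepcidin by capturing BMP ligands. Young red cells in the blood still hold RNA for globins, heme synthesis and membrane proteins, so a piece of liver carries red cell transcripts with its blood.

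The low-Hamp livers were vehicle array 5 with a log2 Hamp level of 9.67, anakinra array 4 with 10.72, vehicle array 3 with 11.55 and anakinra array 1 with 11.61. The other 6 livers held 12.58 in anakinra array 5, 12.78 in vehicle array 2, 12.81 in anakinra array 2, 12.89 in vehicle array 1, 12.95 in anakinra array 3 and 13.16 in vehicle array 4. The values nearest the threshold were thus 11.61 inside it and 12.58 outside it. Both treatments lay on each side, with 2 vehicle and 2 anakinra livers among the low and 3 of each among the other. Hamp ranged from 7.07 to 9.16 in EPO livers at 72 h and from 12.70 to 13.07 in sham livers. Of the 25 other arrays without EPO, anakinra array 3 at 7 days was the lowest, at 11.998, marginally under the threshold. EPO livers at 24 h, at 9.24 to 11.89, covered nearly the same Hamp range as the 4 low livers.

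Values are log2 RMA values (robust multi-array averaging, done by the authors), so a difference of 1 is 2-fold, and differences are low minus other unless said otherwise. Because a measured value chose the groups, no p-value is given for any gene between them. Each gene is described by its arrays, its mean ± SD, whether the groups overlap, and the share of all 14505 genes other than Hamp that meet the same rule. The 10 arrays had medians within 6.66 to 6.89, the range over the series. The spread of values within an array was narrow in vehicle array 5 of the low livers (SD 2.03) and vehicle array 2 of the other livers (SD 1.99), against a median SD of 2.11 over the series. Leaving out both moved none of 4 counts rerun, namely the genes at least 2-fold higher, those of them with no overlap, the genes at least 2-fold lower with no overlap and the EPO-raised genes that were higher, by more than 1.5 times. Albumin RNA was 13.99 ± 0.02 in the low and 13.98 ± 0.05 in the other livers, near the top of the array scale, which ends at 14.24.

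Most of the transcripts that were at least 2-fold higher in the 4 livers belonged to red cells. Of 14505 genes, 11 had a mean at least 2-fold higher in the low livers (0.0758%) and 0 a mean at least 2-fold lower. Of these 11, 6 were on a list of 30 measured red cell membrane, globin and maturation genes, and a further one was Alas2, the erythroid enzyme that starts heme synthesis. The other 4 were Cdc25b, Emb, Rsad2 and Lcn2. Without anakinra array 4, 5 genes reached this size. On the red cell list 29 of 30 genes had a higher mean, with a median difference of 0.33, against 47.3% and a median of -0.01 over all genes. The mean level of this list was 7.84 to 8.58 in the low and 7.33 to 7.95 in the other livers. The groups thus overlapped, with 3 low livers above every other liver. In bulk tissue more cells of a type and more RNA per cell cannot be told apart.

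Alox15, a lipoxygenase that takes part in clearing mitochondria from maturing reticulocytes in rabbits, showed the largest difference. Its level was 11.21, 10.75, 10.15 and 8.46 in the low livers, against 8.86, 8.16, 7.88, 7.57, 6.80 and 6.78 in the other livers. The means were 10.14 ± 1.20 (SD, n = 4) and 7.67 ± 0.81 (SD, n = 6), a difference of 2.47 or 5.53-fold. Of the low livers, 3 lay above every other liver, and anakinra array 1 lay below vehicle array 4. The level in sham livers was 7.46 to 8.51, which 3 low livers exceeded, while EPO livers at 72 h reached 11.97 to 13.32.

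Ahsp, which encodes the chaperone of free alpha globin, ranked the 4 low livers in the same order. It stood at 9.41, 8.56, 8.23 and 7.06 in the low livers, against 7.16, 7.13, 5.65, 5.46, 5.31 and 5.19 in the other livers, a mean difference of 2.33 (5.02-fold). Vehicle array 4 and anakinra array 5 were the 2 other livers that overlapped the lowest of the 4. In EPO livers at 72 h Ahsp was 9.50 to 11.59, so anakinra array 4 came within 0.1 of the lowest of them.

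Slc4a1, which encodes band 3, the chloride and bicarbonate exchanger of red cells, was one of only 2 genes that were at least 2-fold higher with no overlap (0.0138% of genes). It stood at 9.55, 9.23, 8.78 and 7.85 in the low livers, against 7.83, 7.21, 7.11, 6.95, 6.65 and 6.56 in the other livers, a difference of 1.80 (3.49-fold). The margin was narrow: anakinra array 1 and vehicle array 4 were 0.02 apart on the log2 scale. The count of such genes depended on single livers. It was 4 without vehicle array 3, 11 without anakinra array 1, 1 without anakinra array 4 and 11 without vehicle array 4.

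Rhd and Hemgn behaved alike. Rhd, a Rh blood group protein, averaged 7.60 ± 0.75 in the low and 6.49 ± 0.25 in the other livers, and Hemgn, a nuclear protein of erythroid cells, 7.71 ± 0.67 and 6.57 ± 0.39. In both, anakinra array 4 and both low vehicle arrays lay above all 6 other livers, and anakinra array 1 did not. Epb42, a membrane skeleton protein, differed by 0.52 and Rhag, the Rh-associated glycoprotein, by 0.27. Car2, a carbonic anhydrase, differed by 0.81 and Bpgm, which makes the regulator of oxygen release in red cells, by 0.78.

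The globin groups overlapped. Hbb-b1 had a mean of 12.22 ± 0.37 in the low and 11.20 ± 0.79 in the other livers, a difference of 1.02, and only anakinra array 4 lay above every other liver. Hba-a3 differed by 0.94 and Hbb by 0.88. Vehicle array 4 had the second highest Hbb-b1 level of the 10, at 12.39, although its Hamp level was the highest. Members of the globin family share sequence, so their probes may read one another.

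**Figure D1:**
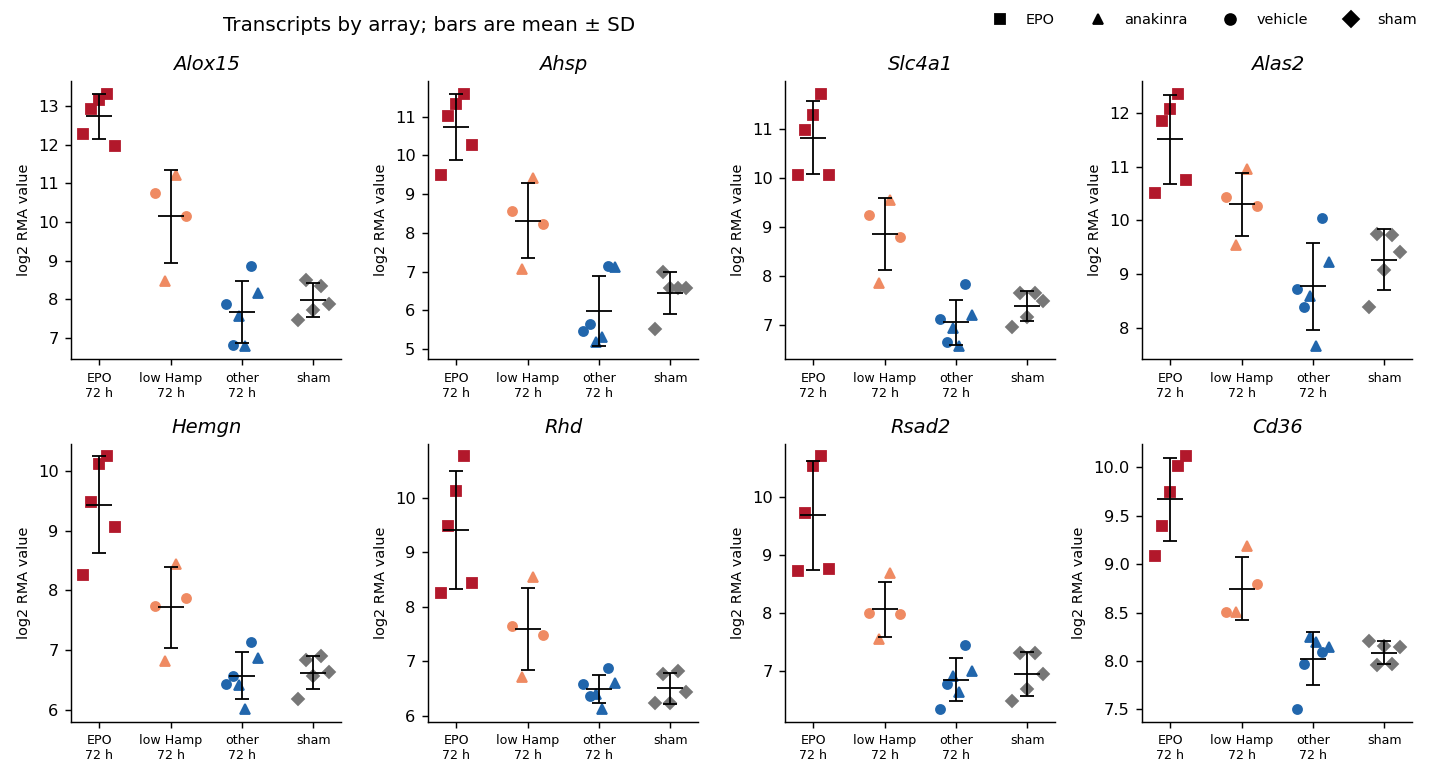
Log2 RMA values of 8 transcripts in each array, with columns for EPO livers at 72 h, low-Hamp livers, other livers without EPO at 72 h, and sham livers; squares are EPO, triangles anakinra, circles vehicle and diamonds sham, and bars are mean ± SD. The means of the low-Hamp livers sit between those of the EPO livers and of the other livers, with anakinra array 1 the lowest of the 4 for Alox15, Ahsp, Slc4a1 and Alas2.

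Alas2 was the only gene of the heme synthesis and mitochondrial iron import list to differ by 1 or more. It stood at 10.96, 10.43, 10.28 and 9.54 in the low livers, against 10.05, 9.22, 8.73, 8.60, 8.38 and 7.65 in the other livers. The difference of 1.53 (2.89-fold) again left an overlap between anakinra array 1 and vehicle array 4. Of the 15 measured genes of the list 9 had a higher mean, against 47.3% of all genes, with a list median of 0.05. Fech, which inserts the iron, differed by 0.22 and Slc25a37, the mitochondrial iron importer, by 0.21. Alas1, the enzyme that starts heme synthesis in hepatocytes, was lower by mean, at 10.96 ± 0.41 in the low and 11.40 ± 0.14 in the other livers.

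The transcription factors of the lineage differed by small amounts between the groups. Of 14 measured factors and receptors 10 had a higher mean, with a median of 0.08 and none differing by 0.5. Over all genes 47.3% had a higher mean. Klf1, an activator of adult globin genes, averaged 7.34 ± 0.27 in the low and 7.07 ± 0.16 in the other livers, and Gata1, the main erythroid GATA factor, 6.30 ± 0.29 and 6.18 ± 0.17. For Klf1, 3 low livers lay above every other liver, and for Gata1, 2 lay above and 1 below. The EPO receptor gene Epor was at 7.31 ± 0.18 and 7.32 ± 0.17. The Epo gene itself was at 5.46 ± 0.28 in the low and 5.55 ± 0.19 in the other livers, and 9 of 20 measured hypoxia genes had a higher mean (median -0.01). The group means of Epo ran from 5.41 to 5.68 over the series, below the array medians, so a change could be missed at this level.

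Upstream sequences are shown for the chosen gene and for 2 red cell genes that differed at least 2-fold, since erythroid genes are known for GATA-binding letters near their starts. The windows run from 250 bases before to 50 bases after the RefSeq start in build GRCr8, on the strand of the gene. GATA letters were searched as AGATAA or AGATAG or TGATAA or TGATAG, erythroid KLF letters as CCACACCC, and BMP-element letters as GGCGCC, all on both strands, and matches are in capitals. The window of Alas2 is chrX:22895200-22895499 (plus strand) with AGATAA at -136. The window of Rhd is chr5:152370950-152371249 (plus strand) with AGATAA at -72, TGATAG read on the other strand at -45 and CCACACCC read on the other strand at -28. The window of Hamp is chr1:95300222-95300521 (minus strand) with AGATAA read on the other strand at -148, GGCGCC at -129 and AGATAG read on the other strand at -122.
Alas2: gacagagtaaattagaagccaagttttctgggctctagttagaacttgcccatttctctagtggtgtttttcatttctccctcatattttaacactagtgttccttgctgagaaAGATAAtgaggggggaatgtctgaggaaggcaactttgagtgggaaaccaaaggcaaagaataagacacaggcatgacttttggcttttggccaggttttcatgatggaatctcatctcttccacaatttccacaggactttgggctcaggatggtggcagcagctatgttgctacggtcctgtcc
Rhd: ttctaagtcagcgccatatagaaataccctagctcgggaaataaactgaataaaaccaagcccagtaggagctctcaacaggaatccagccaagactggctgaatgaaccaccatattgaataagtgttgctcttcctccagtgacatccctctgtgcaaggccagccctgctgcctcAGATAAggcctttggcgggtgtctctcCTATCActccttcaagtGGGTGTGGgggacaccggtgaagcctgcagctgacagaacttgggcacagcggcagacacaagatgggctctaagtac
Hamp: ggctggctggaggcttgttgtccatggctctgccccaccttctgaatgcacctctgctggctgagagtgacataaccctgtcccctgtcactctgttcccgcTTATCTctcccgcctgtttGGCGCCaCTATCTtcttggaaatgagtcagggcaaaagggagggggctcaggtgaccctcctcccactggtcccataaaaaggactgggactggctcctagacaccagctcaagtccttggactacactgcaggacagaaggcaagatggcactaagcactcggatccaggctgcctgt

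GATA letters stood in 31.8% of the 27457 genes of the promoter table, CCACACCC in 3.5% and GGCGCC in 12.3%. Of the 11 genes at least 2-fold higher in the low livers, 8 had a window in the table and 5 of these held GATA letters (62.5%). GGCGCC stood in 3 of the 8 (37.5%) and CCACACCC in 1 (12.5%). A match of letters is a description of the sequence and not evidence of binding.

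Transcripts that EPO changes were taken from livers outside the split. In a limma fit over the 40 arrays that are not among the 10 compared here, EPO at 7 days differed from vehicle at 7 days in 49 genes that rose (0.338% of 14506) and 6 that fell (0.0414%, Hamp among them), at a Benjamini-Hochberg adjusted p under 0.05. Alox15 rose by 4.32 (SE 0.37, adjusted p = 2.11e-10), Ahsp by 3.35 (SE 0.43, adjusted p = 4.77e-06) and Slc4a1 by 2.48 (SE 0.28, adjusted p = 3.41e-07). Each was higher in 5 of 5 EPO livers than in every vehicle liver. These p-values rest on the spread between animals within groups, which the fit pools over its 8 groups of 5 animals.

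Every one of the 49 genes that EPO raised at 7 days had a higher mean in the low-Hamp livers, which had no EPO. Over all genes 47.3% had a higher mean. The median difference of the 49 was 0.36, and 9 of them were at least 2-fold higher, as 0.0758% of all genes were. Of the 49, 26 (53.06%) had 3 or 4 low livers above all 6 other livers, as 1.69% of all genes did. With single livers left out, 47 to 49 of the 49 stayed higher by mean. Within vehicle alone and within anakinra alone the medians were 0.39 and 0.40. Within vehicle Ppbp (-0.097), Etfbkmt (-0.033) and Ypel5 (-0.018) were lower. The 5 genes other than Hamp that EPO lowered all had a lower mean in the low livers, by 0.07 to 0.53. They were Ccnd1, a cyclin of the G1 phase, Slc25a22, a mitochondrial glutamate carrier, Pfkfb1, a regulator of glycolysis in liver, Apoa5, an apolipoprotein of triglyceride transport, and Acnat2. Ccnd1 averaged 8.38 ± 0.07 in the low and 8.90 ± 0.42 in the other livers.

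**Figure D2:**
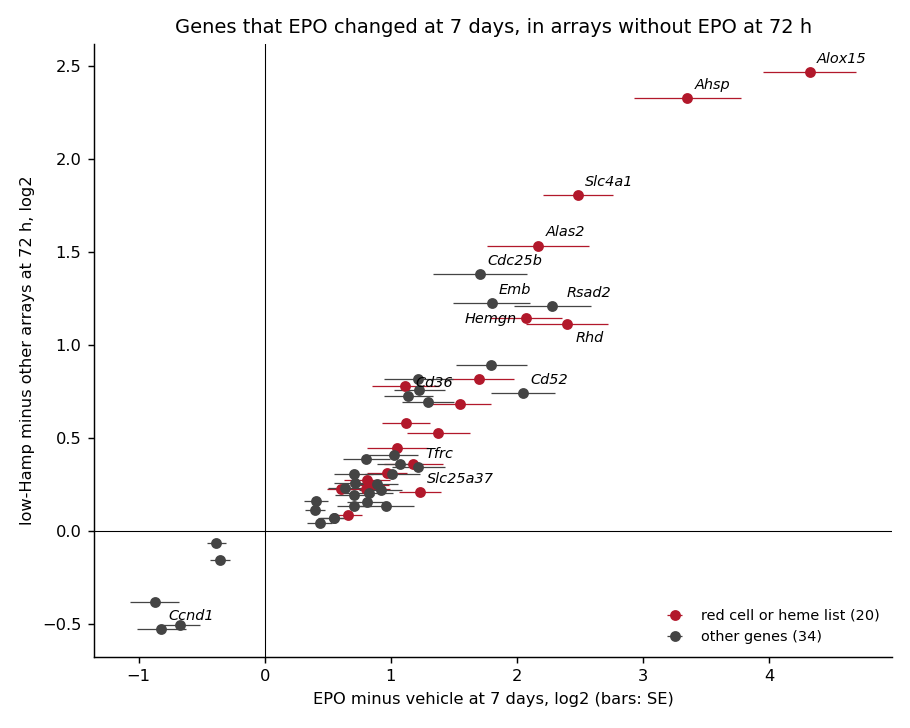
Each point is 1 of the 54 genes other than Hamp that EPO changed at 7 days; the horizontal axis is EPO minus vehicle at 7 days with its SE and the vertical axis low-Hamp minus other livers at 72 h, both log2. The 49 raised genes all lie above 0 and the 5 lowered genes below it, with Alox15 and Ahsp at the top right.

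Not all of these genes were on the red cell lists, and absence from a list does not show where a gene is expressed. Of the 49, 20 belonged to the red cell, heme or erythroid factor lists (median difference 0.55) and 29 to none of them (median 0.30, from 0.04 to 1.38). Of the 20, 13 had a promoter window in the RefSeq table and 11 of these held GATA letters (84.6%). So did 16 of the 41 windows found for all 49 genes (39.0%). GGCGCC stood in 6 of the 13 (46.2%) and 14 of the 41 (34.1%). CCACACCC stood in 2 of the 13 (15.4%) and 3 of the 41 (7.3%). Cdc25b, a phosphatase that activates cyclin-dependent kinases, averaged 9.48 ± 0.64 in the low and 8.10 ± 0.69 in the other livers. Emb, a partner protein of monocarboxylate transporters, stood at 8.30, 7.71, 7.45 and 6.96 in the low livers, against 7.01, 6.62, 6.46, 6.45, 5.95 and 5.80 in the other livers. Ybx3, a cold-shock domain protein, differed by 0.76 and Ucp2, a mitochondrial carrier, by 0.69. All are among the EPO-raised genes, and whether their RNA came from blood cells or from liver cells was not tested.

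Rsad2 and Cd36 separated the groups completely. Rsad2, the interferon-induced antiviral enzyme viperin, was 8.70, 8.01, 7.99 and 7.56 in the low livers, against 7.45, 7.00, 6.91, 6.78, 6.64 and 6.34 in the other livers, a difference of 1.21 (2.31-fold). All 4 low livers also lay above the sham livers, which ended at 7.32. Cd36, a receptor for fatty acids found on macrophages, platelets and red cell precursors, was 9.19, 8.79, 8.50 and 8.50 in the low livers, against 8.25, 8.19, 8.14, 8.09, 7.96 and 7.50 in the other livers. The difference of 0.72 (1.65-fold) was 1.13 with another probe of the gene. The interferon and amino acid response list as a whole had 11 of 19 genes higher by mean, with a median of 0.06. Over all genes 47.3% were higher.

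In size the low livers stood between the other livers and the EPO livers of the same time. The mean level of the 49 genes was 8.54 to 9.97 in EPO livers at 72 h. It was 8.56 in anakinra array 4, 8.24 in vehicle array 3, 8.17 in vehicle array 5 and 7.81 in anakinra array 1, the low livers, against 7.93, 7.66, 7.58, 7.54, 7.52 and 7.43 in the other livers. Sham livers held 7.52 to 7.83. Anakinra array 4 thus reached the lower edge of the EPO livers, and anakinra array 1 lay below vehicle array 4 and inside the sham range.

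EPO livers at 24 h had Hamp levels like those of the low livers, and a mean of the 49 genes below that of 3 of the 4. With Hamp from 9.24 to 11.89, this mean was 7.70 to 7.94, overlapping the sham livers, the other livers and anakinra array 1 at 7.81. Alox15 was at 8.93 to 9.78 there, above the 8.46 of anakinra array 1 and below the other 3 low livers, against 7.46 to 8.51 in sham livers, and Alas2 at 8.58 to 9.55, against 8.38 to 9.75. Among the low livers the order of Hamp was also not the order of the red cell genes: vehicle array 5 had the least Hamp, and anakinra array 4 the most Alox15, Ahsp, Slc4a1, Alas2, Rhd and Rsad2. Vehicle array 4 had the most Hamp of the 10 and 5 of the 49 genes at least 2-fold above the mean of the other livers, against 18 in anakinra array 4, 9 in vehicle array 3, 8 in vehicle array 5 and 1 in anakinra array 1.

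**Figure D3:**
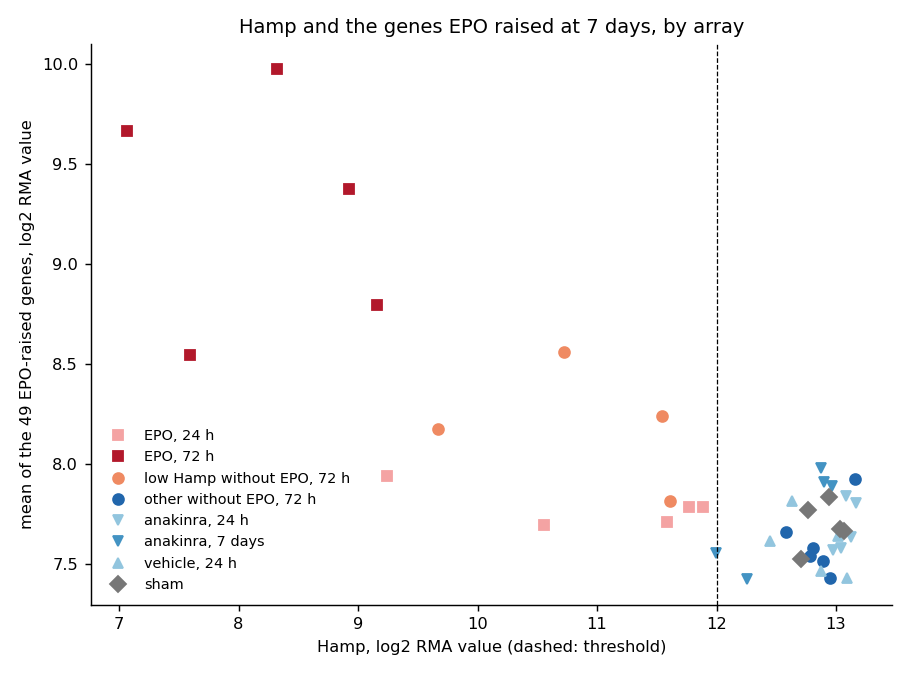
Each point is 1 array; the horizontal axis is the log2 RMA value of Hamp with the threshold of 12 dashed, and the vertical axis the mean log2 RMA value of the 49 genes that EPO raised at 7 days. The 7-day EPO and vehicle arrays chose the genes and are not drawn; the low-Hamp livers reach 8.56, while EPO livers at 24 h with similar Hamp stay at or below 7.94, as does anakinra array 1 of the low livers at 7.81.

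The 4 genes that EPO raised past the threshold at 24 h did not set the low livers apart. At 24 h the same fit called 4 genes higher than vehicle (0.0276%) and 1, Hamp, lower (0.00689%). Egr1, an immediate early transcription factor, rose by 1.13 (adjusted p = 0.00484), Csf2rb, the shared beta chain of the interleukin-3 family receptors, by 0.60 (adjusted p = 0.0169), Fgf23, a phosphate-regulating hormone, by 0.81 (adjusted p = 0.0216) and Dmbt1, a scavenger protein of mucosa, by 0.78 (adjusted p = 0.0294). The 5 calls became 3 or fewer when any EPO array, vehicle array 3 or vehicle array 5 was left out. In the low livers these 4 genes differed from the other livers by -0.21 to 0.20, and every pair of groups overlapped. Alox15, the gene with the largest difference in the split, rose by 1.72 with EPO at 24 h but did not pass (adjusted p = 0.0845 in limma). Tacr1, the substance P receptor, which was at 7.29 to 7.65 in EPO livers at 24 h, averaged 6.84 ± 0.19 in the low and 6.73 ± 0.18 in the other livers.

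The STAT5 and cytokine feedback list, which holds known targets of EPO receptor signalling, had 11 of 19 genes higher by mean (median 0.02). Over all genes 47.3% were higher. Pim1, a STAT5-induced kinase, averaged 8.37 ± 0.39 in the low and 8.31 ± 0.16 in the other livers. Cish, a feedback inhibitor of the pathway, was 7.78 ± 0.98 and 8.38 ± 1.14, a wide spread in both groups.

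Regulators of hepcidin differed by small amounts, and most BMP-SMAD genes were lower by mean. Of 18 BMP-SMAD genes 4 had a higher mean and 14 a lower one, with a median of -0.06. Over all genes 47.3% had a higher mean. Id1, a direct BMP target, was 6.63, 6.62, 6.62 and 6.47 in the low livers, against 6.79, 6.76, 6.72, 6.71, 6.70 and 6.65 in the other livers, so the groups did not overlap, as in 0.11% of genes in this direction, at a difference of -0.14. The margin was narrow, and the difference was -0.06 in vehicle alone and -0.21 in anakinra alone. Smad7, the inhibitory SMAD, averaged 6.50 ± 0.11 and 6.64 ± 0.15, Atoh8, a BMP-responsive factor, 8.15 ± 0.28 and 8.49 ± 0.20, and Bmp6, the main BMP ligand of iron sensing, 7.73 ± 0.17 and 7.79 ± 0.12. Tfr2, a transferrin sensor of hepatocytes, was at 11.45 ± 0.10 in the low and 11.39 ± 0.07 in the other livers. Tfrc, the receptor for iron uptake into precursors, was 9.17 ± 0.60 and 8.83 ± 0.24, with only 2 low livers above the rest. Erfe had no probe of its own symbol in the annotation used.

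**Figure D4:**
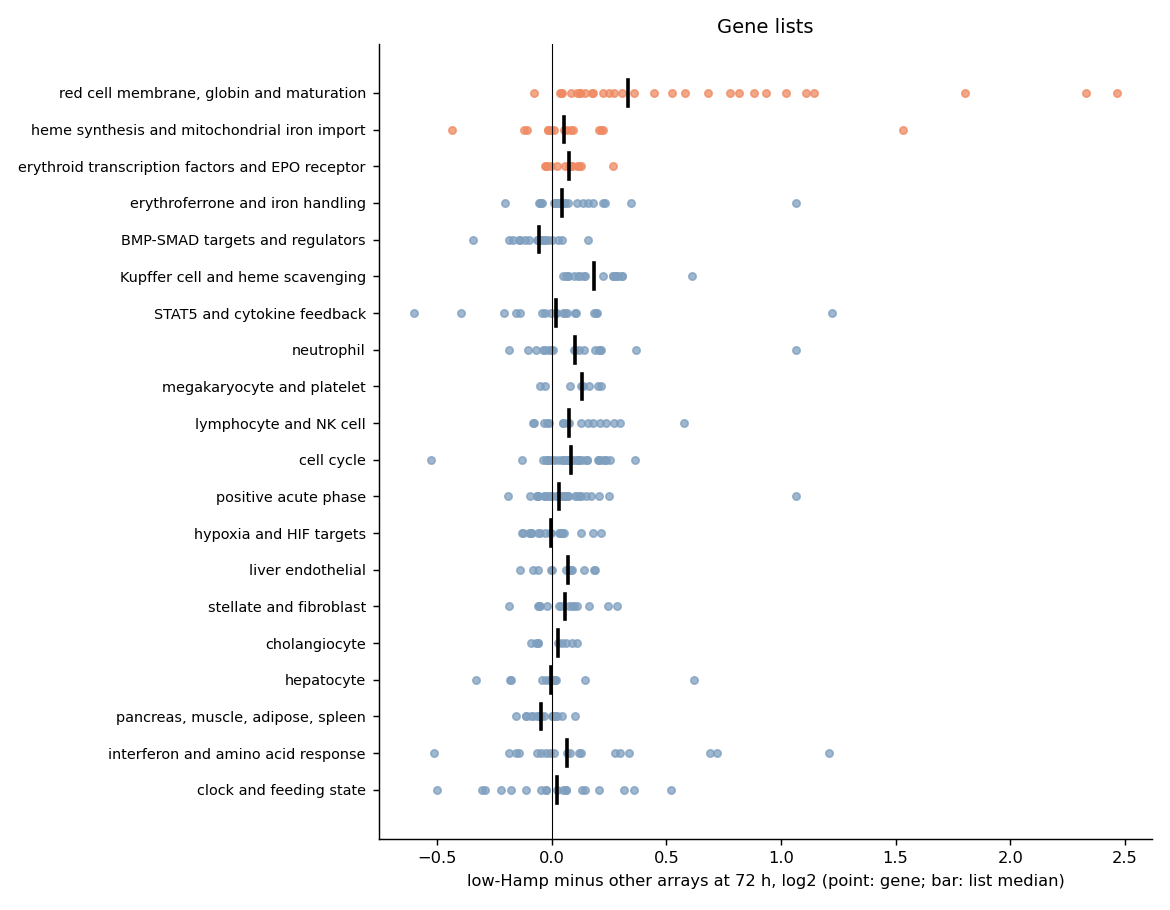
Low-Hamp minus other livers at 72 h, log2, for every measured gene of 20 lists; points are genes and bars list medians. The red cell list stands furthest to the right, with a median of 0.33, and the medians of the other lists lie between -0.06 and 0.18.

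Markers of other cell types moved with the split to a smaller extent. Of the 18 Kupffer cell and heme scavenging genes, all had a higher mean (median 0.18), against 47.3% and a median of -0.01 over all genes. The list was led by Cd5l at 8.93 ± 0.45 in the low and 8.32 ± 0.60 in the other livers. Hmox1, which degrades heme, was at 7.68 ± 0.31 and 7.58 ± 0.20, Cd163, the scavenger of haemoglobin, at 9.39 ± 0.35 and 9.10 ± 0.34, and Vsig4 at 9.71 ± 0.43 and 9.49 ± 0.42. The mean level of that list was 8.37 to 8.96 in the low and 8.25 to 8.88 in the other livers. The groups overlapped, with 2 low livers above every other liver.

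Over all genes 47.3% had a higher mean, with a median of -0.01. Of 18 neutrophil genes 11 had a higher mean and 7 a lower one, with a median of 0.10 and a minimum of -0.19. The neutrophil list level was 6.05 to 6.25 in the low and 5.87 to 6.20 in the other livers. Mmp8, the neutrophil collagenase, averaged 6.10 ± 0.18 and 5.73 ± 0.14, with 3 low livers above the rest, Ngp differed by 0.21 and S100a9 by 0.19. Platelet genes were higher in 6 of 8, at a list level of 6.96 to 7.11 in the low and 6.74 to 7.05 in the other livers. Lymphocyte genes were higher in 12 of 17, at 6.42 to 6.78 and 6.33 to 6.73. Endothelial genes were higher in 8 of 12, at 8.94 to 9.21 and 8.85 to 9.19, and hepatocyte genes in 6 of 14, at 12.83 to 12.94 and 12.60 to 13.05. The array table holds no detection call and no value of 0, and the part of these cells in the red cell result was not tested.

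Acute phase genes differed little apart from Lcn2. Of 30 positive acute phase genes 19 had a higher mean, against 47.3% of all genes. The list median was 0.03, and 29 of the 30 lay within 0.5 of no difference. Lcn2, a siderophore-binding protein of the acute phase and of neutrophils, was at 9.38, 8.59, 8.30 and 7.38 in the low livers, against 8.16, 7.36, 7.32, 7.24, 7.18 and 6.85 in the other livers. Its difference of 1.06 was 1.73 within anakinra and 0.40 within vehicle, where the highest of the other livers lay above one of the low livers. Lcn2 and Hbb-b1 were the 2 of the 11 genes that EPO did not raise past the threshold at 7 days. In that comparison EPO minus vehicle was 0.28 for Lcn2 (adjusted p = 1.00 by limma) and 1.02 for Hbb-b1 (adjusted p = 0.338 by limma). At 72 h EPO livers averaged 9.26 ± 1.61 for Lcn2 and 12.77 ± 0.51 for Hbb-b1. The low livers averaged 8.415 and 12.22.

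Cell cycle genes were higher by mean in 27 of 35 and lower in 8, with a median of 0.08, against 47.3% higher over all genes. The largest difference on that list was a lower mean, Ccnd1 at -0.53. Rrm2, a ribonucleotide reductase subunit, averaged 6.05 ± 0.30 in the low and 5.82 ± 0.12 in the other livers, and Top2a, a topoisomerase of dividing cells, 6.13 ± 0.62 and 5.77 ± 0.14. Among the genes with no overlap, Pttg1, the securin of chromosome separation, was higher by 0.44 and Pclaf, a partner of PCNA, by 0.37. Pclaf differed by 0.13 within vehicle and 0.61 within anakinra, and its lowest low liver and highest other liver were both at 5.75. Pttg1 was 6.52 to 7.18 in the low livers, which overlapped the 6.54 to 6.98 of sham livers. Ubd, a ubiquitin-like modifier induced by cytokines, was 7.40, 7.26, 7.17 and 7.01 in the low livers, against 7.01, 6.96, 6.81, 6.05, 5.79 and 5.63 in the other livers. In EPO livers at 72 h Ubd was 5.71 to 6.97, below all 4 low livers.

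In all, 16 genes had every low liver above every other liver (0.11%) and 16 had every low liver below (0.11%), 0.221% together. The 16 higher genes included Slc4a1, Rsad2, Ubd, Cd36, Pttg1 and Pclaf, and the other 10 differed by less. The 16 lower genes differed by 0.28 or less, with Lcn1 at -0.28 and Tcn2, the plasma carrier of vitamin B12, at -0.22. The largest lower means belonged to genes whose groups overlapped: Sds, a serine-degrading enzyme, averaged 8.69 ± 0.54 in the low and 9.51 ± 0.78 in the other livers, and Sgk1, a glucocorticoid-induced kinase, 9.29 ± 0.32 and 10.05 ± 0.54.

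Anakinra against vehicle at 72 h called 0 genes in limma over all 50 arrays (1546 at an unadjusted p under 0.05, smallest adjusted p 0.316), and leaving out single arrays left it at 0. Alox15 differed by -0.45 (SE 0.55, adjusted p = 0.701) between anakinra and vehicle. Within vehicle, low minus other was 2.60 for Alox15, 2.30 for Ahsp, 1.81 for Slc4a1 and 1.30 for Alas2. Within anakinra it was 2.33, 2.35, 1.79 and 1.76 for the same genes. Hbb-b1 differed by 0.70 within vehicle and 1.35 within anakinra.

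Whether red cell transcripts go with Hamp from animal to animal was tested in arrays that the split did not use. Over the 25 sham, vehicle and anakinra arrays at 24 h and 7 days, limma fitted each gene on Hamp within its group. No gene of 14505 passed (0%), with 1042 at an unadjusted p under 0.05 (7.18%) and a smallest adjusted p of 0.671, shared by Maged1, Tbx2, Nop56 and others. The slopes of the red cell genes were positive, that is, opposite to the direction of the split: 1.24 for Alas2 (SE 0.49), 0.92 for Ahsp (SE 0.55), 0.85 for Alox15 (SE 0.50) and 0.68 for Slc4a1 (SE 0.28) per log2 unit of Hamp. Their adjusted p-values were 0.671 to 0.714. Without anakinra array 3 at 7 days the slope was 0.25 for Ahsp, 0.50 for Alox15 and 0.48 for Slc4a1, and with single arrays left out it reached at most 1.41 for Ahsp and 1.17 for Alox15. Hamp moved by only -0.60 to 0.37 around the group means in these arrays, against a difference of -1.97 between the low and other livers, so they hardly reach the Hamp levels of the 4 livers. The arrays with the least Hamp, anakinra arrays 3 and 1 at 7 days (11.998 and 12.26), had means of the 49 genes of 7.55 and 7.42, the lowest in their group, where the other 3 held 7.89 to 7.98.

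**Figure D5:**
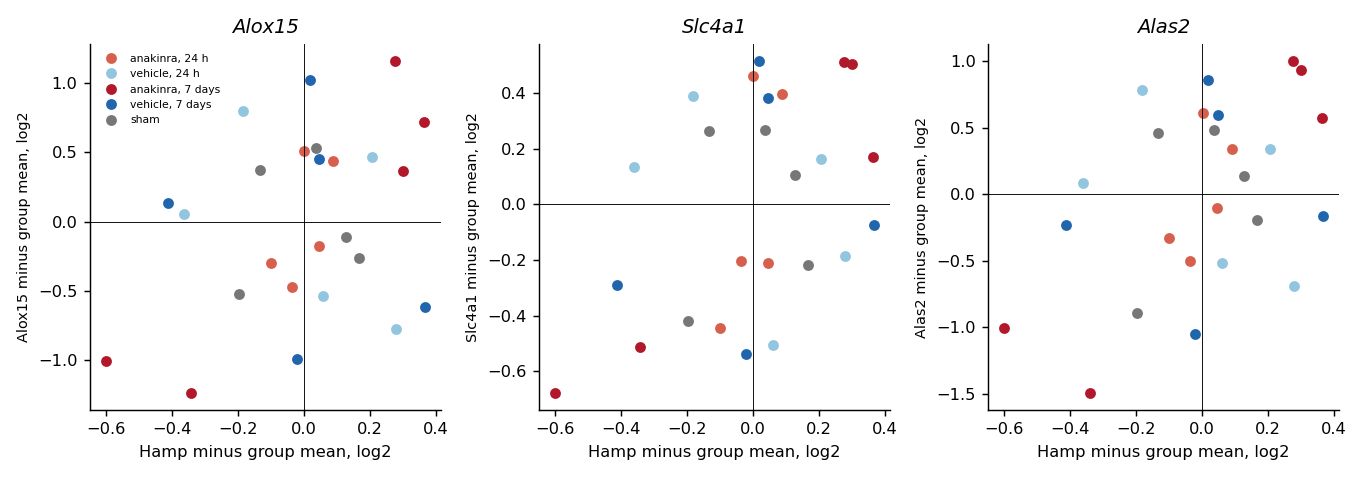
For 25 arrays without EPO that the split did not use, the deviation of Hamp from its group mean (horizontal) and of Alox15, Slc4a1 and Alas2 from theirs (vertical), log2; colours are the 5 groups. Hamp deviates by -0.60 to 0.37, and the array at -0.60, anakinra array 3 at 7 days, lies below 0 for all 3 genes.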

How the data were processed

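The deposited table holds 1 log2 value per probe and array, which the authors made by RMA with the oligo package, per the submitters' processing notes (the sources used here give no version). RMA corrects background, normalises quantiles over all arrays and summarises probes, so a change in many genes at once would be damped. Of 29214 probes, 15310 carried 1 gene symbol, 323 several and 13581 none. The probe with the highest mean stood for each of 14506 genes, and 527 genes had several probes. No filter on intensity was applied. Precision is limited by the number of arrays.

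The 10 livers at 72 h without EPO were split at a Hamp value of 12 and described without a test. Other comparisons used limma 3.58.1 in R 4.3.3 (lmFit, eBayes, two-sided, Benjamini-Hochberg over all genes, threshold 0.05), checked on simulated data: EPO against vehicle on the 40 arrays outside the split (32 residual degrees of freedom), anakinra against vehicle on all 50 (40), and the Hamp slope with group means on 25 arrays (19). Members, gene lists and named genes were chosen with earlier results of these data known. Named were the genes without overlap with the largest differences, the genes with the largest changes or smallest p in each fit, a fixed panel, and the leading members of each list; the 2-fold genes outside these and the largest lower means were named after their values were seen. In the main fits replicate numbers were not treated as pairs. Same-numbered arrays had correlations of deviations of -0.20 to 0.62 at 7 days, -0.21 to 0.23 at 24 h and 0.02 to 0.43 at 72 h. Of 5 arrays, 2 at 7 days, 1 at 24 h and 2 at 72 h matched best with their own number. Whether the numbers mark pairs was thus not settled. Promoter windows came from RefSeq (GRCr8).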

Additional observations from a re-analysis of the deposited data

Results flagged for a closer look

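In 9 of 116 groups of arrays tested, over 58 genes, 1 array lay far from the rest of its group by Dixon's test, where chance gives about 1 in 20. Among the 4 low livers, Id1 was 6.4663 in anakinra array 1, against 6.6215 to 6.6265 for its neighbours. Ppp1cb-ps7 was 3.8953 in anakinra array 4 of the low livers and, among the other livers, 3.1093 in vehicle array 1. Rab7b was 6.4019 in vehicle array 3 of the low livers.

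Among the 6 other livers, vehicle array 2, one of the arrays with a narrow spread, had the highest Epo value, 5.9175, and the lowest Ppm1a value, 9.3931. Vehicle array 1 had the highest values of Gnat2, 6.6783, and of Tcn2, 10.989. Pim1 was 8.6264 in anakinra array 2.

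Outside the named genes, 13904 probes had no single gene symbol. In 2 of them every low liver lay above every other liver and every sham liver, and the low minus other difference of means was at least 2-fold. Probe 10729791 averaged 9.71 in the low livers, 7.55 in the other livers and 7.74 in sham livers, a low minus other difference of 2.1615. Probe 10862820 averaged 6.90 in the low livers, 5.84 in the other livers and 5.97 in sham livers, a difference of 1.063. What these probes measure was not determined here.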

How the results depend on the processing

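The split kept the direction of its main values under another probe per gene, array centring, array scaling, the treatment as a term and without the narrow arrays. The count of genes at least 2-fold higher with no overlap (2) was 4 at 1.5-fold and 16 with no minimum fold, where 16 genes were lower. It was 10 in vehicle alone (3 lower) and 22 in anakinra alone (1 lower), where 25 genes had means at least 2-fold higher. It ranged from 1 to 11 with single arrays left out, and the count of lower genes was 0 throughout. The number of 2-fold means ranged from 5 to 15, the red cell median from 0.27 to 0.44, the number of EPO-raised genes that were higher from 47 to 49 and their median from 0.27 to 0.46. Among genes at or above the median gene the red cell median was 0.68.

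With a Hamp threshold of 11 (2 livers against 8), 4 genes were higher and 1 lower, and Tfrc differed by -0.33. A threshold of 13 set 9 livers against vehicle array 4 alone. There 8 genes were higher and 6 lower, the red cell median was 0.004, 18 of the EPO-raised genes were higher and their median was -0.073. Alox15 then differed by -0.22, Ahsp by -0.27, Alas2 by -0.74, Slc4a1 by -0.066, Hemgn by -0.11, Car2 by -0.37, Rsad2 by -0.13 and Ubd by -0.12. These thresholds move livers between the groups by construction.

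The 5 calls at 24 h were 0 in a fit of only the 10 arrays, 8 with array weights, 1 without the narrow arrays and 1 to 7 with single arrays left out, and the cause was not tested. The 55 calls at 7 days were 38 to 54 with single arrays left out. The counts for anakinra and for the Hamp slope were 0 throughout. With the replicate number as a block the calls were 51 at 7 days, 4 at 24 h, where Dmbt1 did not pass (adjusted p = 0.0669 in limma), 0 for anakinra and 0 for the slope. The Hamp slope of Cd36 turned to 0.11 with array weights and 0.20 without the narrow arrays, and that of Rsad2 to -0.064 with EPO arrays and -0.035 with scaled arrays. The Alox15 difference between anakinra and vehicle was -1.15 to 0.013 with single arrays left out. With 4 and 6 arrays, the smaller differences lay within the spread between arrays.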
